A study of Mus musculus with 12 samples.

Results

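The RNA of 35 genes of endothelial cells and liver sinusoids was followed through 12 libraries of mouse liver cells. The genes were taken from a list of symbols drawn up from general knowledge of endothelium and of the hepatic sinusoid. Earlier results of these data were known when the list was drawn up. Each symbol was matched to its Ensembl identifier. All 35 were among the 53715 genes of the count table, and all 35 passed the filter, above 10 counts in at least 1 library, which kept 17779 genes. The study grew hepatocytes from embryonic precursors and compared them with their starting cells and with adult cells. Hepatoblasts were the Dlk1+ fraction of E14.5 livers of wild-type C57BL/6JOlaHsd mice, pooled over the embryos of an isolation, freed of erythrocytes by lysis, separated on a magnetic column and lysed for RNA at once. Diff. hepatocytes were hepatoblasts isolated in the same way from E14.5 livers of that strain and grown for 4 days on fibronectin in a medium with dexamethasone, serum, an insulin-transferrin-selenium supplement and Matrigel. Mature hepatocytes came from adult male C57BL/6JOlaHsd mice of 8 to 12 weeks by collagenase perfusion and were not cultured. Each group had 4 biological replicates. None of these preparations selects endothelial cells, so the counts of the 35 genes come from populations enriched for another cell type, and in such bulk RNA fewer cells of a type and less RNA per cell cannot be told apart.

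Endothelial cells line the blood vessels and hold together through junctions built on VE-cadherin, and they grow and survive on signals received by the VEGF and angiopoietin receptors. In the liver the exchange vessels are sinusoids, whose endothelium is perforated by fenestrae, lacks a continuous basement membrane and clears waste from blood through scavenger receptors such as the stabilins. Sinusoidal and central vein endothelium also signals to hepatocytes with secreted Wnt, R-spondin and BMP ligands. The transcription factors of the ETS family, among them Erg, bind a core of GGAA and are known regulators of endothelial genes.

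The promoters of 5 members are shown as examples, not as the full range of patterns found. Tie1, Robo4 and Kdr fell in culture, Clec4g had the largest rise in the adult cells, and Eng was retained in culture. No gene that was lower in the adult cells than in hepatoblasts is among them. Each sequence is the 250 bases before the start site given by RefSeq on GRCm38.p6, read 5′ to 3′ on the strand of the gene. Capitals mark the letters AGGAAG or CGGAAG and their complements CTTCCT and CTTCCG, which contain the ETS core.
Tie1 (chr4:118489850-118490099, minus strand): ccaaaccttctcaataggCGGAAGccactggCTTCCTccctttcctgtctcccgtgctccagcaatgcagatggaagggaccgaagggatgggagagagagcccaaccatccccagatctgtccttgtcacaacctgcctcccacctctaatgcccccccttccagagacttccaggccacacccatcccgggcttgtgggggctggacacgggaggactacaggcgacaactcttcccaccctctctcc
Robo4 (chr9:37401722-37401971, plus strand): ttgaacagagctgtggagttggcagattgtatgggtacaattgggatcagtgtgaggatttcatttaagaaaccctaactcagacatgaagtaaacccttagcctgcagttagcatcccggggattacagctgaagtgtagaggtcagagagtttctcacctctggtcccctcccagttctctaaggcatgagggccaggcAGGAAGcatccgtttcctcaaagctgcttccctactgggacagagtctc
Kdr (chr5:75978456-75978705, minus strand): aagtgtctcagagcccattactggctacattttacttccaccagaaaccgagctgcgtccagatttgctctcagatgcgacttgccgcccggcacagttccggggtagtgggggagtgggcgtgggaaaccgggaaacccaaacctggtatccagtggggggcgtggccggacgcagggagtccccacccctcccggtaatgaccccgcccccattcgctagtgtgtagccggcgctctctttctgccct
Clec4g (chr8:3720652-3720901, minus strand): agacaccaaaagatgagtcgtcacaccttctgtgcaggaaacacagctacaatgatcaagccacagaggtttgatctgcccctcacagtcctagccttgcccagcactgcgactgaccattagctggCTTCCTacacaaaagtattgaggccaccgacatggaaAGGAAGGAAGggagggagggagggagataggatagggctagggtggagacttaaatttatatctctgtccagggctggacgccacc
Eng (chr2:32646345-32646594, plus strand): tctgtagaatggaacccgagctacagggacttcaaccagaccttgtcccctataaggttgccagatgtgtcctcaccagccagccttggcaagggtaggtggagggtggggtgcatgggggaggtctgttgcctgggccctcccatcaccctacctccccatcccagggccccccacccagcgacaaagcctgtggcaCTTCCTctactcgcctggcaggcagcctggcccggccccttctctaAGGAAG
RefSeq entries were found for 18 of the 35 genes, with 22 windows of 250 bases before to 50 after a start. Egfl7 and Erg each gave several of these windows. Searched on both strands, AGGAAG occurred in 13 of the 22 windows (59.1%), against 35.4% of the 32851 windows of all genes in the same table. CGGAAG occurred in 2 of the 22 (9.09%, against 16.9% of all windows), and AACAAT, a core bound by Sox factors, in 3 of the 22 (13.6%, against 10.7%). The windows of Kdr, Flt4, Wnt2, Wnt9b and Clec1b, and some of those of Egfl7 and Erg, held none of these motifs. The core GGAA alone was neither marked nor counted, and the Kdr sequence above holds it. In the 250 bases before the start of Ehd3, a gene also retained in culture, neither AGGAAG nor CGGAAG occurred.

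Counts on genes lay between 19581551 and 25216977 per library, and the 35 genes took 0.02522 to 0.05579% of them in hepatoblasts, 0.01451 to 0.02012% in Diff. hepatocytes and 0.03427 to 0.05648% in mature hepatocytes. Values are given as CPM, the counts of a gene divided by a library size that edgeR's TMM method had scaled over the bulk of the genes and that is counted in units of 1e6. The log2 fold changes (log2FC, ± standard error) and adjusted p-values come from edgeR's quasi-likelihood test fitted to all 17779 genes over the 12 libraries, with Benjamini-Hochberg adjustment over all of them. Calls needed an adjusted p below 0.01 together with an absolute log2FC above 1. The TMM factors were 1.234 to 1.442 in hepatoblasts, 1.025 to 1.081 in Diff. hepatocytes and 0.6772 to 0.7778 in mature hepatocytes, so values that cross to the adult cells depend on this scaling more than the others. Alb, the major hepatocyte product, stood at 27765 to 118984 CPM in the 12 libraries, and Dlk1, on which the hepatoblasts were selected, at 2461 to 4199 CPM in the hepatoblast libraries, 88.3 to 99.1 in Diff. hepatocytes and 3.17 to 6.42 CPM in mature hepatocytes. The 5 defining endothelial markers Pecam1, Cdh5, Kdr, Tie1 and Erg each had at least 3 counts in every library. Hepatoblasts replicate 1 stood apart from the other hepatoblast libraries in the 35 genes and in markers of blood cells, and calls that change without it, and called values that move by over 1.5 times, are given both ways.

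In Diff. hepatocytes, 23 of the 35 genes were lower than in hepatoblasts and none was called higher, while 14% of all tested genes were called lower and 14.9% higher. With edgeR's unadjusted p under 0.05, 2 of the 35 were higher in culture, Eng and Ehd3, and DESeq2's Wald test called 0 higher. The median log2FC of the 35 genes was -2.44, and -2.11 when Wnt2 and Wnt9b, which had no count in culture, were set at their bounds, against -0.01 over all tested genes. The Diff. hepatocyte values lay wholly below the hepatoblast values for 23 genes and wholly above them for 1, Eng, a separation that 57.5% of all tested genes showed in either direction. By direction, 5123 of the 17779 tested genes lay wholly below and 5093 wholly above. Of the 8 receptors (VEGF and angiopoietin receptors, apelin and adrenomedullin receptors and Gpr182) 7 were lower. Aplnr, among these 7, passed the filter only through its hepatoblast counts. In the other roles 3 of 4 nuclear factors and enzymes, 5 of 8 sinusoidal genes, 6 of 11 junction and surface genes and 2 of 4 secreted ligands were lower. Without hepatoblasts replicate 1, 6 of the 8 receptors were lower and 1 higher, and 3 of 4 nuclear factors and enzymes were lower. Of the 23 calls, 18 held in every fit that left out 1 library. The exceptions were Mmrn2, Flt4, Wnt9b, Sox18 and Nos3. Without hepatoblasts replicate 1 the count was 22 lower and 2 higher, with a median of -1.91. In that fit 5069 of all 17532 tested genes were called in either direction.

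**Figure D1:**
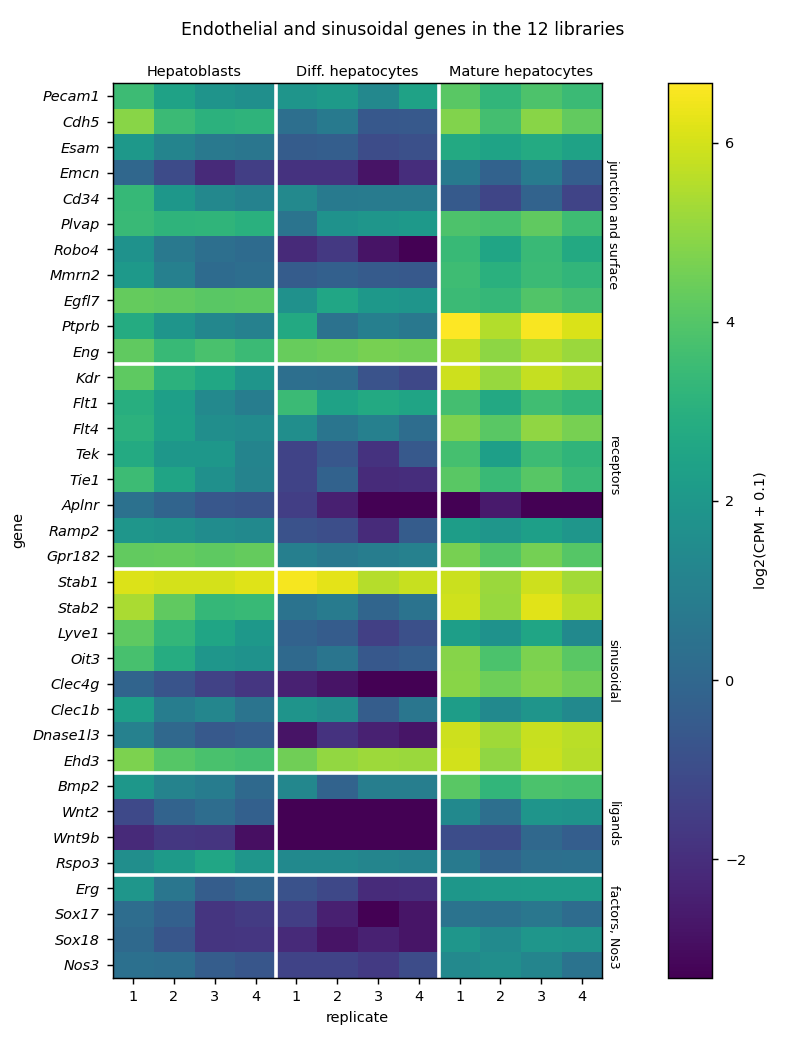
Level of the 35 genes in each of the 12 libraries, as log2(CPM + 0.1) by colour, with the genes in rows by role and the replicates in columns by group. The columns of Diff. hepatocytes are darker than both neighbours for most rows, with Stab1, Eng, Ehd3 and Flt1 among the visible exceptions. In Cd34 and Rspo3 the mature hepatocyte columns are the darkest. Hepatoblasts replicate 1 is the brightest hepatoblast column for 30 of the 35 genes.

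In mature hepatocytes, 19 of the 35 genes were higher than in hepatoblasts and 3 were lower, where 20.1% of all tested genes were called higher and 24.7% lower. The median log2FC was 1.34, against -0.15 over all tested genes. The adult values lay wholly above the hepatoblast values for 18 genes and wholly below for 5. Separation in either direction, at 23 of the 35 genes, was about as common as among all tested genes (66%). By direction, 5350 of the 17779 tested genes lay wholly above and 6379 wholly below. This comparison depended on the scaling. With plain library totals in place of TMM, the median of all tested genes moved to -1.0 and that of the 35 genes to 0.47. Of all 17779 tested genes, 9927 were then called in either direction. Among the 35 genes the calls moved to 8 higher and 6 lower. The 8 were Mmrn2, Ptprb, Kdr, Flt4, Clec4g, Dnase1l3, Bmp2 and Sox18, all among the 19. The 6 were Cd34 and Rspo3, called lower with either scaling, Egfl7, Stab1 and Lyve1, and Aplnr. Aplnr was lower with either scaling but passed the filter only through its hepatoblast counts. Without hepatoblasts replicate 1 there were 23 higher, 3 lower and a median of 1.77, with 7872 of all 17532 tested genes called in either direction.

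Set against mature hepatocytes, Diff. hepatocytes had 27 of the 35 genes lower and 1 higher, Cd34, where 15.6% of all tested genes were called lower and 20.2% higher. The median log2FC was -3.48 (0.09 over all tested genes), and -3.45 with Wnt2 and Wnt9b at their bounds. No overlap between the groups was seen for 28 lower and 2 higher genes, against 61.6% of all tested genes in either direction (5184 of the 17779 lower and 5765 higher). All 27 calls held in every fit without 1 library, and 26 of them held with library totals, where Pecam1 was lost (log2FC -1.21, adjusted p = 0.02). The 7 genes without a call were Eng, Flt1, Aplnr, Stab1, Clec1b, Ehd3 and Rspo3. Aplnr and Wnt9b passed the filter through 1 group each. Without them 21 of 33 genes were lower in Diff. hepatocytes than in hepatoblasts, 18 were higher and 2 lower in mature hepatocytes than in hepatoblasts, and 26 were lower in Diff. than in mature hepatocytes. These 3 comparisons share their libraries pairwise, so for each gene the changes are given side by side and not as separate support.

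**Figure D2:**
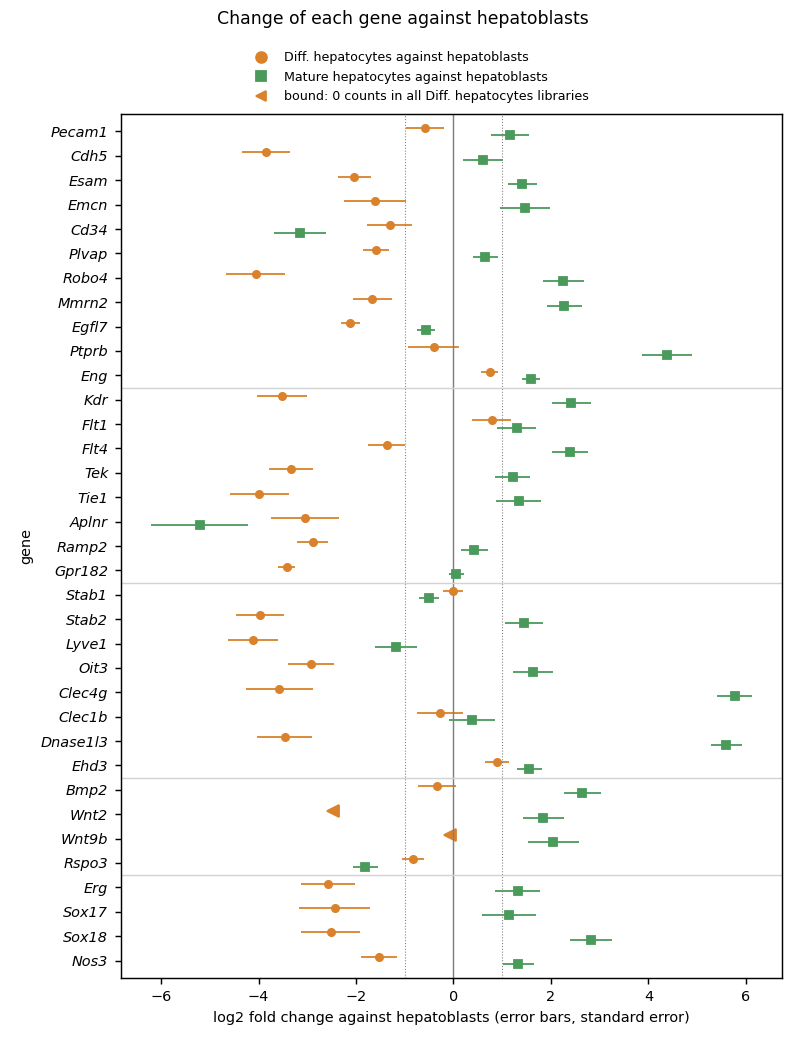
Log2 fold change of each of the 35 genes against hepatoblasts in Diff. hepatocytes (circles) and mature hepatocytes (squares), with standard errors as bars, a solid line at 0 and dotted lines at -1 and 1. Triangles mark Wnt2 and Wnt9b, where the Diff. hepatocytes had 0 counts and the position is the fall to a set floor of 3 counts in each library. Circles lie below -1 for most genes and squares mostly above 0, with Cd34 and Rspo3 as squares below -1 that passed the test. The square of Aplnr also lies below -1, but this gene passed the filter only through its hepatoblast counts.

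Among the junction genes, Cdh5, which encodes VE-cadherin, had 29.6, 11.02, 8.55 and 8.88 CPM in hepatoblasts replicates 1 to 4, 1.17, 1.64, 0.577 and 0.592 CPM in Diff. hepatocytes, and 27.6, 12.8, 29.3 and 18.9 CPM in mature hepatocytes. Every Diff. hepatocyte library was below every hepatoblast library, and replicate 1 was the highest hepatoblast library by far. Cdh5 fell in culture (log2FC -3.85 ± 0.50, adjusted p = 1.99e-05), a ratio of means of 14.6, and the fall was -3.23 without hepatoblasts replicate 1 (adjusted p = 4.12e-06). In mature hepatocytes its values overlapped those of hepatoblasts (log2FC 0.61 ± 0.41, adjusted p = 0.191), and without hepatoblasts replicate 1 it was called higher there (log2FC 1.22, adjusted p = 0.00218). With library totals the sign of that comparison turned (log2FC -0.30).

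Robo4, a receptor that stabilizes vessel walls, had 3.29, 1.55, 1.17 and 1.03 CPM in hepatoblasts replicates 1 to 4, 0.1297, 0.215, 0.0444 and 0 CPM in Diff. hepatocytes, and 10.4, 5.71, 10.9 and 6.58 CPM in mature hepatocytes. Its counts in Diff. hepatocytes were only 3, 5, 1 and 0. The 3 groups did not overlap, and the change was log2FC -4.06 ± 0.60, adjusted p = 6.62e-05 in culture and log2FC 2.25 ± 0.42, adjusted p = 0.000309 in adult cells, the latter not called with library totals (1.36, adjusted p = 0.0131). Without Diff. hepatocytes replicate 2 the fall of Robo4 was -4.76. Mmrn2, a matrix protein that binds the endothelial lectin Cd93, followed the same order, with 1.04 to 4.16 CPM in hepatoblasts, 0.592 to 0.732 in Diff. hepatocytes and 7.96 to 11.7 in mature hepatocytes. It was called in both (log2FC -1.66 ± 0.40, adjusted p = 0.00303, and log2FC 2.27 ± 0.36, adjusted p = 7.76e-05), but without Diff. hepatocytes replicate 4 the fall in culture had an adjusted p of 0.0102, and without hepatoblasts replicate 1 it was -1.07. Esam, an adhesion molecule of endothelium and platelets, changed by -2.04 ± 0.34 in culture and 1.42 ± 0.30 in adult cells on the log2 scale, with adjusted p of 0.00017 and 0.000798. The adult rise of Esam was not called with library totals (0.53).

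Plvap, which forms the diaphragms of fenestrae and caveolae, and Egfl7, an endothelial secreted protein whose locus also carries a microRNA, had the most even hepatoblast values of the junction and surface genes, at 10.8, 8.81, 9.29 and 8.09 CPM and 19.6, 18.4, 17.2 and 17.5 CPM. Plvap fell in culture to 1.34, 3.27, 3.69 and 4.04 CPM (log2FC -1.58 ± 0.26, adjusted p = 0.000172) and Egfl7 to 3.24, 5.98, 3.95 and 3.599 CPM (log2FC -2.11 ± 0.19, adjusted p = 6.37e-07). Neither was called in mature hepatocytes (log2FC 0.66 ± 0.25, adjusted p = 0.0298 for Plvap, log2FC -0.56 ± 0.18, adjusted p = 0.0121 for Egfl7), and with library totals Plvap turned to -0.20 and Egfl7 was called lower (-1.42). In the annotation, the span of Egfl7, introns included, overlaps that of Gm20532 by 6482 bases on the same strand. The span of Plvap overlaps that of Gtpbp3 by 1819 bases on the other strand. Of the 75-base sequences of Egfl7 transcripts, 2.93% also occur in another gene, most often Gm20532. Their counts are therefore less certain than those of genes that stand alone. The spans of other members, introns included, also overlap genes on the other strand, among them Stab2 (35810 bases with Gm16271), Nos3 (17423), Clec4g (10848), Cd34 (5521) and Cdh5 (4249). The same doubt applies to these.

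Pecam1, the platelet and endothelial adhesion molecule CD31, had 11.5, 5.25, 3.497 and 3.02 CPM in hepatoblasts replicates 1 to 4, 3.59, 4.26, 2.399 and 5.32 CPM in Diff. hepatocytes, and 17.1, 9.37, 14.4 and 11.2 CPM in mature hepatocytes. Its values in culture overlapped those of hepatoblasts (log2FC -0.58 ± 0.39, adjusted p = 0.215). In mature hepatocytes log2FC was 1.16 ± 0.38 with an adjusted p of 0.0145, which became a call without hepatoblasts replicate 1 (1.72, adjusted p = 0.000115). Emcn, a sialomucin of veins and capillaries, was at 0.1295 to 0.903 CPM in hepatoblasts, 0.0444 to 0.173 in Diff. hepatocytes and 0.683 to 1.69 in mature hepatocytes, and was called in neither comparison with hepatoblasts (log2FC -1.61 ± 0.64, adjusted p = 0.0432, and log2FC 1.47 ± 0.51, adjusted p = 0.0191). Without hepatoblasts replicate 1 its adult level was called higher (2.14, adjusted p = 0.00109). Pecam1 and Esam are also platelet genes, and the 10 megakaryocyte and platelet markers counted beside them summed to 25.7 to 100 CPM in the hepatoblast libraries, 33.0 to 103 in Diff. hepatocytes and 5.77 to 8.17 CPM in mature hepatocytes. None of these 10 was called between culture and hepatoblasts by edgeR (1, Pf4, had an unadjusted p under 0.05 and was called higher without hepatoblasts replicate 1) or by DESeq2, and all 10 were lower in mature hepatocytes, and their part in the values of Pecam1 and Esam was not tested.

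Cd34, a sialomucin of vessel endothelium and of blood progenitors, moved the other way from most of the set in adult cells. It had 10.2, 3.82, 2.46 and 2.05 CPM in hepatoblasts replicates 1 to 4, 2.51, 1.59, 1.69 and 1.68 CPM in Diff. hepatocytes, and 0.617, 0.321, 0.817 and 0.3104 CPM in mature hepatocytes. All adult libraries lay below all others, and Cd34 fell by 3.15 on the log2 scale against hepatoblasts (adjusted p = 0.000133), and by 2.42 without hepatoblasts replicate 1. In culture log2FC was -1.31 ± 0.46 (adjusted p = 0.025), with a range of -1.57 to -0.57 over the fits without 1 library, called without hepatoblasts replicate 4 (adjusted p = 0.00944) and smallest in size without replicate 1, and it was called with library totals (-1.69). The higher level in Diff. than in mature hepatocytes (log2FC 1.84 ± 0.54, adjusted p = 0.00933) was lost in 8 of the 12 fits without 1 library, which were those without hepatoblasts replicate 2, any of the Diff. hepatocytes, or mature hepatocytes replicate 1, 2 or 4 (1.65 to 1.92, adjusted p = 0.0128 to 0.0321).

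Ptprb, the endothelial phosphatase VE-PTP that acts on Tie2 and VE-cadherin, had 6.97, 3.64, 2.33 and 1.99 CPM in hepatoblasts replicates 1 to 4, 6.53, 1.25, 1.91 and 1.48 CPM in Diff. hepatocytes, and 101, 45.3, 95.7 and 68.5 CPM in mature hepatocytes. Mature hepatocytes were 20.8-fold above hepatoblasts by means (log2FC 4.38 ± 0.52, adjusted p = 4.66e-06), and this held with library totals (3.48). In culture the values overlapped those of hepatoblasts (log2FC -0.41 ± 0.53, adjusted p = 0.522), Diff. hepatocytes replicate 1 standing above the other 3. The sign turned without hepatoblasts replicate 1 (0.09), and without Diff. hepatocytes replicate 1 the difference was -1.27 (adjusted p = 0.0339).

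Eng, or endoglin, a co-receptor for BMP9 and BMP10, was the only one of the 35 genes whose cultured values all lay above the hepatoblast values. It had 18.4, 10.6, 13.9 and 10.97 CPM in hepatoblasts replicates 1 to 4, 20.2, 21.95, 24.6 and 23.2 CPM in Diff. hepatocytes, and 50.5, 31.1, 44.3 and 35.9 CPM in mature hepatocytes. The 4 Diff. hepatocyte values were also below all 4 mature values. The difference in culture was 0.74 ± 0.18 on the log2 scale, under the fold change threshold (adjusted p = 0.00346, exact permutation p = 0.0286, 2-sided, the smallest that 70 assignments allow), and 0.40 (adjusted p = 0.0989) with library totals. Eng rose in mature hepatocytes (log2FC 1.59 ± 0.18, adjusted p = 3.97e-06), which was under the fold change threshold with library totals (0.72).

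**Figure D3:**
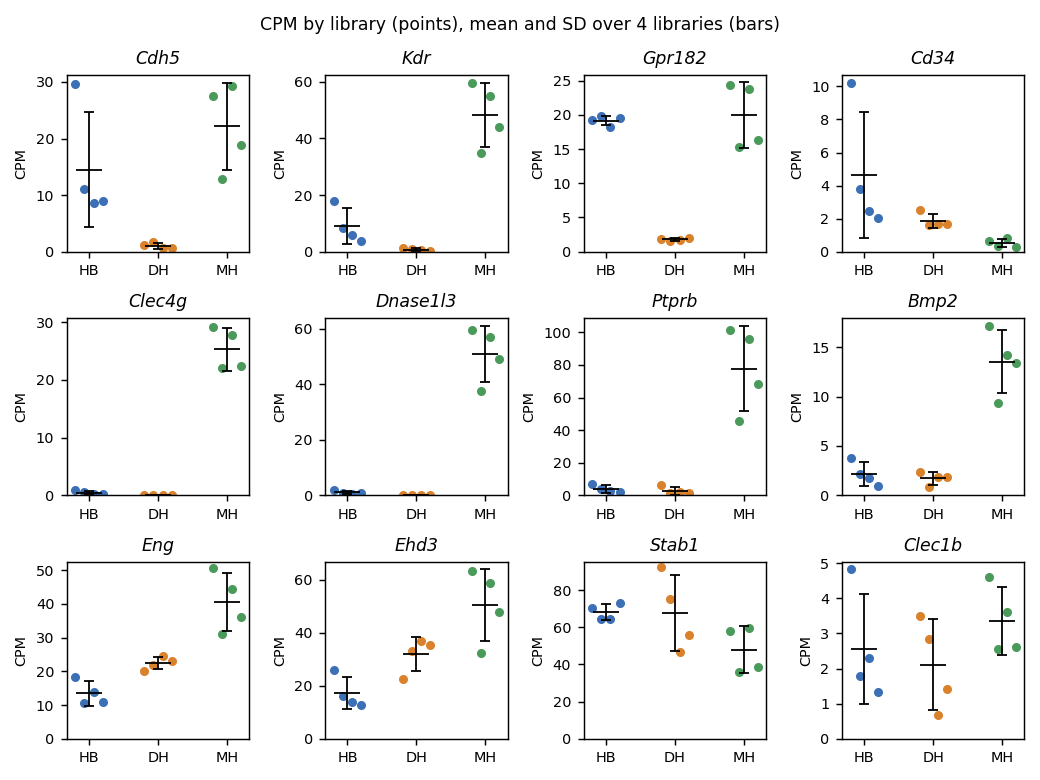
CPM of 12 of the 35 genes in each library (points) with mean and SD over the 4 libraries of a group (bars), for hepatoblasts (HB), Diff. hepatocytes (DH) and mature hepatocytes (MH), each panel on its own linear axis from 0. Cdh5, Kdr and Gpr182 lie near the axis in DH, Clec4g and Dnase1l3 rise above it only in MH, and Eng, Ehd3 and Stab1 keep 20.2 to 92.5 CPM in every DH library.

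Kdr, the main VEGF receptor of endothelium, had 18.03, 8.42, 6.02 and 3.61 CPM in hepatoblasts replicates 1 to 4, 1.17, 1.08, 0.489 and 0.345 CPM in Diff. hepatocytes, and 59.6, 34.7, 55.1 and 43.9 CPM in mature hepatocytes. The groups did not overlap in either direction. Kdr fell in culture (log2FC -3.52 ± 0.51, adjusted p = 5.19e-05, ratio of means 11.7) and rose in adult cells (log2FC 2.42 ± 0.41, adjusted p = 0.000121), the latter also with library totals (1.51). The fall of Kdr was -2.93 without hepatoblasts replicate 1. Tie1, the orphan partner of the angiopoietin receptor, had 11.3, 5.67, 3.11 and 2.09 CPM in hepatoblasts and fell in culture to 0.303, 0.775, 0.133 and 0.148 CPM (log2FC -3.98 ± 0.60, adjusted p = 8.00e-05, -3.37 without hepatoblasts replicate 1 and -4.79 without Diff. hepatocytes replicate 2). At 17.3, 10.9, 16.9 and 10.9 CPM in mature hepatocytes it was not called (log2FC 1.34 ± 0.47, adjusted p = 0.0196), but it was without hepatoblasts replicate 1 (1.94, adjusted p = 0.000505). Tek, the angiopoietin receptor Tie2, lay at 2.19 to 6.77 CPM in hepatoblasts and 0.178 to 0.592 CPM in culture (log2FC -3.33 ± 0.45, adjusted p = 2.98e-05). The rise of Tek to 4.94 to 13.03 CPM in adult cells (log2FC 1.21 ± 0.37, adjusted p = 0.00927) was not called in 9 of the 12 fits without 1 library (0.99 to 1.23, adjusted p = 0.0106 to 0.036), the exceptions being those without hepatoblasts replicate 1, Diff. hepatocytes replicate 3 or mature hepatocytes replicate 2, nor with library totals (0.32).

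Flt4, the receptor for VEGF-C and VEGF-D, had 8.48, 4.96, 2.95 and 2.75 CPM in hepatoblasts replicates 1 to 4, 2.94, 1.38, 1.95 and 1.08 CPM in Diff. hepatocytes, and 26.4, 17.2, 32.04 and 24.7 CPM in mature hepatocytes. Its cultured and hepatoblast values overlapped, and the fall (log2FC -1.37 ± 0.39, adjusted p = 0.00771) was lost without hepatoblasts replicate 1 or 2, Diff. hepatocytes replicate 2, 3 or 4, or mature hepatocytes replicate 1 or 4 (-1.40 to -0.93, adjusted p = 0.0109 to 0.0262). In mature hepatocytes Flt4 rose (log2FC 2.39 ± 0.36, adjusted p = 4.84e-05), also with library totals (1.49). Flt1, the VEGF receptor that also acts as a decoy for its ligands, was the only one of the 8 genes grouped as receptors without a called fall in culture, with 7.48, 4.84, 2.53 and 1.79 CPM in hepatoblasts replicates 1 to 4, 11.02, 5.25, 6.66 and 5.67 CPM in Diff. hepatocytes, and 12.7, 6.48, 12.1 and 9.75 CPM in mature hepatocytes. Hepatoblasts and Diff. hepatocytes overlapped (log2FC 0.78 ± 0.39, adjusted p = 0.103), although without hepatoblasts replicate 1 Flt1 was called higher in culture (1.23, adjusted p = 0.00966). Its rise in adult cells (log2FC 1.299 ± 0.40, adjusted p = 0.00967) was lost in 9 of the 12 fits without 1 library, all but those without hepatoblasts replicate 1, Diff. hepatocytes replicate 1 or mature hepatocytes replicate 2 (1.03 to 1.36, adjusted p = 0.0125 to 0.0346), and with library totals (0.40).

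Gpr182, an atypical chemokine receptor of sinusoidal and lymphatic endothelium at chr10:127747276-127751732, was the steadiest gene of the set within hepatoblasts. It had 19.2, 19.8, 18.2 and 19.5 CPM in hepatoblasts replicates 1 to 4, 1.86, 1.51, 1.78 and 2.02 CPM in Diff. hepatocytes, and 24.3, 15.3, 23.8 and 16.4 CPM in mature hepatocytes. The fall in culture (log2FC -3.42 ± 0.17, adjusted p = 4.68e-09, ratio of means 10.7) had the smallest standard error of the 35 genes. Adult and hepatoblast values overlapped (log2FC 0.06 ± 0.15, adjusted p = 0.739), and the sign turned without mature hepatocytes replicate 1 (-0.06) or 3 (-0.05) and with library totals (-0.80). Aplnr, the apelin receptor of sprouting vessels, had counts of 38, 28, 17 and 15 in hepatoblasts, 6, 2, 0 and 0 in Diff. hepatocytes and 0, 1, 0 and 0 in mature hepatocytes. Aplnr passed the filter only through its hepatoblast counts, so its falls are given without a test. Its log2FC in culture was -3.05 ± 0.69 (-4.46 without Diff. hepatocytes replicate 1), and with 1 count in all adult libraries the ratio of hepatoblasts to mature hepatocytes was 49.5 (95% exact interval 8.68 to 1974, for counting error only). Ramp2, the partner that makes Calcrl an adrenomedullin receptor, went from 2.59 to 3.74 CPM to 0.133 to 0.641 CPM in culture (log2FC -2.89 ± 0.32, adjusted p = 5.23e-06) and to 3.66 to 4.84 CPM in adult cells (log2FC 0.43 ± 0.27, adjusted p = 0.178), where the sign turned with library totals (-0.44). Of its 75-base sequences 29.5% also occur in Vps25, which overlaps it on the same strand, so its values are uncertain.

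Stab2, the main hyaluronan scavenger receptor of sinusoids, had 41.7, 18.5, 9.91 and 10.6 CPM in hepatoblasts replicates 1 to 4, 1.297, 1.68, 0.844 and 1.28 CPM in Diff. hepatocytes, and 62.2, 34.4, 74.8 and 49.1 CPM in mature hepatocytes. Its fall in culture was 15.8-fold by means (log2FC -3.98 ± 0.49, adjusted p = 1.31e-05), with log2FC -3.34 without hepatoblasts replicate 1. The adult rise (log2FC 1.45 ± 0.40, adjusted p = 0.00486) was 2.07 without hepatoblasts replicate 1 and was lost without hepatoblasts replicate 2, 3 or 4 or mature hepatocytes replicate 1 or 3 (1.20 to 1.39, adjusted p = 0.014 to 0.019), and with library totals (0.54). Its paralog Stab1 at chr14:31139013-31168641, a scavenger receptor of sinusoids that is also found on macrophages, did not share this pattern. Stab1 had 70.3, 64.6, 64.2 and 73.1 CPM in hepatoblasts replicates 1 to 4, 92.5, 75.4, 46.7 and 55.9 CPM in Diff. hepatocytes, and 58.01, 35.9, 59.4 and 38.5 CPM in mature hepatocytes. Hepatoblasts and Diff. hepatocytes overlapped, the 2 means differed by -0.01 ± 0.21 on the log2 scale (adjusted p = 0.975), and the sign turned without hepatoblasts replicate 1 or 4 or Diff. hepatocytes replicate 3 or 4 (0.02 to 0.13). In mature hepatocytes every value was below every hepatoblast value (log2FC -0.51 ± 0.21, adjusted p = 0.0426), and with library totals Stab1 was called lower (-1.36). The 14 macrophage markers summed to 192, 84.8, 26.6 and 40.2 CPM in Diff. hepatocytes replicates 1 to 4, the same order of libraries as Stab1, and to 395, 96.0, 118 and 114 CPM in hepatoblasts, where Stab1 was flat. The part of macrophages in the Stab1 level was not tested.

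Lyve1, the hyaluronan receptor of lymphatic and sinusoidal endothelium, had 18.1, 9.67, 5.73 and 3.88 CPM in hepatoblasts replicates 1 to 4, 0.778, 0.646, 0.267 and 0.444 CPM in Diff. hepatocytes, and 4.73, 3.27, 5.78 and 2.61 CPM in mature hepatocytes. It fell in culture by 4.11 on the log2 scale (adjusted p = 1.40e-05), and its adult values overlapped the lower part of the hepatoblast range (log2FC -1.19 ± 0.43, adjusted p = 0.0239), with a call without hepatoblasts replicate 4 (-1.46, adjusted p = 0.00546) and with library totals (-2.08). Oit3, a secreted protein of sinusoidal endothelium, went from 3.31 to 13.5 CPM in hepatoblasts to 0.577 to 1.38 CPM in culture (log2FC -2.93 ± 0.47, adjusted p = 0.000141). In mature hepatocytes it rose to 14.1 to 28.5 CPM (log2FC 1.63 ± 0.40, adjusted p = 0.00252), with an adjusted p of 0.0102 without mature hepatocytes replicate 1 and a log2FC of 0.72 without a call with library totals.

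Clec4g, or LSECtin, a C-type lectin of sinusoidal endothelium, had the largest rise of the set. It had 0.838, 0.508, 0.291 and 0.199 CPM in hepatoblasts replicates 1 to 4, 0.0865, 0.04305, 0 and 0 CPM in Diff. hepatocytes, and 29.3, 22.01, 27.8 and 22.3 CPM in mature hepatocytes. The adult libraries were 55.3-fold above hepatoblasts by means (log2FC 5.77 ± 0.35, adjusted p = 6.97e-09), a rise that held with library totals (4.90). In culture it had counts of 2, 1, 0 and 0, so that hepatoblasts were 13.7-fold higher (95% exact interval 4.47 to 68.5, adjusted p = 0.000556) and mature hepatocytes 753-fold higher (257 to 3656). Dnase1l3, a secreted nuclease that degrades DNA in blood, at chr14:7964533-7994573, had 1.97, 0.925, 0.583 and 0.696 CPM in hepatoblasts replicates 1 to 4, 0.0432, 0.172, 0.0888 and 0.0493 CPM in Diff. hepatocytes, and 59.7, 37.4, 57.02 and 49.2 CPM in mature hepatocytes. The 3 groups were fully apart for both genes. Dnase1l3 fell in culture (log2FC -3.46 ± 0.56, adjusted p = 0.000143) and rose 48.7-fold by means in adult cells (log2FC 5.599 ± 0.32, adjusted p = 3.51e-09), again with library totals (4.72).

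Clec1b, the podoplanin receptor CLEC-2 of platelets and of sinusoidal endothelium, was called in none of the 3 comparisons. It had 4.84, 1.79, 2.299 and 1.33 CPM in hepatoblasts replicates 1 to 4, 3.502, 2.84, 0.666 and 1.43 CPM in Diff. hepatocytes, and 4.59, 2.57, 3.62 and 2.61 CPM in mature hepatocytes. The groups overlapped throughout (log2FC -0.28 ± 0.48, adjusted p = 0.639 in culture, log2FC 0.38 ± 0.48, adjusted p = 0.483 in adult cells), and the sign turned without hepatoblasts replicate 1 (0.24) or Diff. hepatocytes replicate 3 (0.02) in the first and with library totals (-0.51) in the second. The summed megakaryocyte and platelet markers were 94.3, 103, 33.0 and 52.8 CPM in the 4 Diff. hepatocyte libraries, high in replicates 1 and 2 as Clec1b was, and their part in it was not tested. Ehd3, a membrane trafficking ATPase found in sinusoidal endothelium, at chr17:73804134-73832094, had 26.1, 16.1, 13.7 and 12.8 CPM in hepatoblasts replicates 1 to 4, 22.5, 32.97, 36.8 and 35.3 CPM in Diff. hepatocytes, and 63.1, 32.5, 58.7 and 47.6 CPM in mature hepatocytes. In culture 3 of 4 libraries exceeded all hepatoblast values, and log2FC was 0.89 ± 0.25 (adjusted p = 0.0075), under the fold change threshold. Without hepatoblasts replicate 1 it was called higher (1.17, adjusted p = 0.000435), as it was without Diff. hepatocytes replicate 1 (1.03, adjusted p = 0.00367). Ehd3 rose in mature hepatocytes (log2FC 1.55 ± 0.25, adjusted p = 8.86e-05), although not with library totals (0.67).

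Of the secreted ligands, Bmp2, with which sinusoids induce hepcidin in hepatocytes, had 3.81, 2.12, 1.75 and 0.961 CPM in hepatoblasts replicates 1 to 4, 2.38, 0.818, 1.82 and 1.82 CPM in Diff. hepatocytes, and 17.1, 9.37, 14.2 and 13.4 CPM in mature hepatocytes. Adult values were above all others (log2FC 2.64 ± 0.38, adjusted p = 2.94e-05, and 1.75 with library totals), while cultured and hepatoblast values overlapped (log2FC -0.34 ± 0.39, adjusted p = 0.473, turning to 0.09 without hepatoblasts replicate 1). Wnt2, a Wnt ligand of sinusoidal and central vein endothelium, at chr6:17988940-18030585, had counts of 11, 27, 34 and 22 in hepatoblasts, none in any Diff. hepatocyte library and 38, 18, 62 and 55 in mature hepatocytes. Against a floor of 3 counts in each cultured library, Wnt2 was at least 5.54-fold lower in culture than in hepatoblasts (adjusted p = 0.00011) and at least 19.99-fold lower than in mature hepatocytes. Wnt9b, a central vein Wnt, had 4, 7, 6 and 1 counts in hepatoblasts, again none in culture and 6, 6, 16 and 11 in mature hepatocytes. It was at least 1.05-fold lower in culture (adjusted p = 0.00451, and 0.011 and 0.0114 without hepatoblasts replicate 2 or 3) and at least 4.47-fold lower there than in adult cells, and it passed the filter only through its adult counts. The higher adult level of Wnt2 (log2FC 1.85 ± 0.42, adjusted p = 0.00252) was not called with library totals (1.003). That of Wnt9b is given without a test because of the filter (log2FC 2.05 ± 0.52, 1.213 with library totals, and 1.749 to 2.003 without hepatoblasts replicate 1 or mature hepatocytes replicate 3 or 4).

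Rspo3, the R-spondin of central vein endothelium that amplifies Wnt signalling, had 2.97, 4.21, 5.86 and 3.68 CPM in hepatoblasts replicates 1 to 4, 2.55, 2.54, 2.22 and 2.07 CPM in Diff. hepatocytes, and 1.58, 0.834, 1.17 and 1.18 CPM in mature hepatocytes. The 3 groups did not overlap, with hepatoblasts highest and mature hepatocytes lowest. Rspo3 fell in adult cells (log2FC -1.81 ± 0.25, adjusted p = 2.24e-05), and its lower values in culture stayed under the fold change threshold (log2FC -0.83 ± 0.23, adjusted p = 0.00801, and a call at -1.14 with library totals). Diff. hepatocytes were 0.98 ± 0.26 above mature hepatocytes on the log2 scale (adjusted p = 0.0043), which was a call without Diff. hepatocytes replicate 3 or 4 or mature hepatocytes replicate 1 (1.01 to 1.14). Rspo3 and Wnt2, with Wnt9b, were the only 3 of the 35 genes with less in hepatoblasts replicate 1 than in the mean of replicates 2 to 4, as the 12 mesenchymal markers were in sum (1119 against 1543 to 1982 CPM), a coincidence whose source was not tested.

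The ETS factor Erg, which maintains endothelial identity, had 3.74, 1.43, 0.6800 and 0.862 CPM in hepatoblasts replicates 1 to 4, 0.476, 0.344, 0.133 and 0.148 CPM in Diff. hepatocytes, and 3.84, 4.300, 4.32 and 4.35 CPM in mature hepatocytes. It fell in culture (log2FC -2.57 ± 0.56, adjusted p = 0.00136, and -1.81, adjusted p = 0.00153, without hepatoblasts replicate 1), and all adult values were above all hepatoblast values without a call (log2FC 1.32 ± 0.46, adjusted p = 0.0198), which was reached without hepatoblasts replicate 1 (2.07, adjusted p = 9.25e-05). The SoxF factors Sox17 and Sox18, regulators of arterial and lymphatic fate, had low counts. Sox18 went from 0.967, 0.537, 0.194 and 0.199 CPM to 7 counts over the 4 Diff. hepatocyte libraries (a ratio of 6.09, 95% exact interval 2.78 to 15.8, adjusted p = 0.00285), with adjusted p of 0.0109 and 0.0102 without Diff. hepatocytes replicate 2 or 4. The fitted log2FC of this fall was -2.52, and -1.92 without hepatoblasts replicate 1. Sox18 rose to 3.703, 2.63, 3.74 and 3.48 CPM in mature hepatocytes (log2FC 2.82 ± 0.43, adjusted p = 4.92e-05, and 1.93 with library totals). Sox17 was at 0.194 to 1.096 CPM, 0 to 0.259 CPM and 1.06 to 1.46 CPM in the 3 groups and was called in neither comparison with hepatoblasts (log2FC -2.44 ± 0.72, adjusted p = 0.0103, and log2FC 1.14 ± 0.55, adjusted p = 0.0766). Its lower level in culture was called without hepatoblasts replicate 3 or 4 or Diff. hepatocytes replicate 1 (-3.498 to -2.702, adjusted p = 0.00361 to 0.0062) and with library totals (-2.79). Nos3, the endothelial nitric oxide synthase, went from 0.5303 to 1.19 CPM to 0.222 to 0.394 CPM in culture (log2FC -1.53 ± 0.37, adjusted p = 0.0028), with adjusted p of 0.0102 and 0.0114 in the fits without hepatoblasts replicate 2 and Diff. hepatocytes replicate 3. In adult cells it rose to 1.304 to 2.95 CPM (log2FC 1.33 ± 0.32, adjusted p = 0.00204), without a call with library totals (0.47).

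Levels of different genes were compared per kilobase of exon, as shares of the summed CPM per kilobase of the 35 genes. In hepatoblasts the set was spread widely, led by Stab1 at 13.7 ± 3.87% (SD, n = 4), Egfl7 at 10.4 ± 2.28% and Gpr182 at 10.04 ± 2.63%. In Diff. hepatocytes the leading genes were Stab1 at 25.4 ± 6.45%, Eng at 21.8 ± 3.11% and Ehd3 at 19.2 ± 4.69%, which together held 65.3 to 68.6% in each of the 4 libraries. The adult shares were led by Clec4g at 8.797 ± 0.958%, Eng at 8.43 ± 0.487% and Dnase1l3 at 8.33 ± 0.479%. The 3 leading genes of each group's own order held 22.7 to 43.5% in hepatoblasts and 23.6 to 27.2% in mature hepatocytes, against that 65.3 to 68.6% in culture. Receptors took 18.0 to 20.6% in hepatoblasts, 5.45 to 7.95% in Diff. hepatocytes and 16.7 to 17.4% in mature hepatocytes. The summed CPM of the set was 387, 250, 212 and 205 in hepatoblasts, 186, 172, 142 and 151 in Diff. hepatocytes and 754, 441, 749 and 558 in mature hepatocytes, each cultured library below each hepatoblast library and, with TMM, each adult library above. By library totals hepatoblasts replicate 1, with 0.05579% of counts, lay above mature hepatocytes replicates 1, 2 and 4 (0.05286, 0.03427 and 0.03778%). With library totals the means were 352 in hepatoblasts and 453 in mature hepatocytes, against 263 ± 84.9 and 626 ± 153 (SD, n = 4) with TMM.

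**Figure D4:**
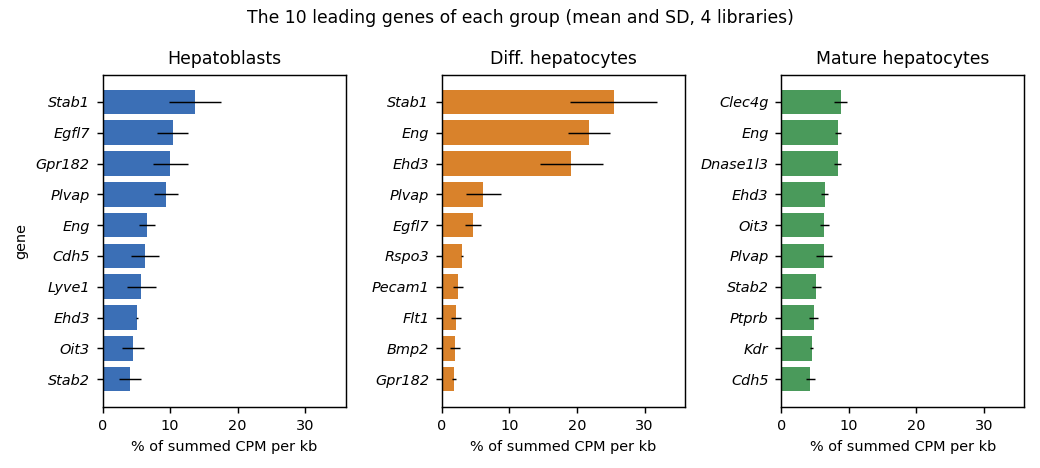
The 10 genes with the largest shares of the summed CPM per kilobase of exon of the 35 genes in each group, as mean (bars) and SD (lines) over 4 libraries. Stab1, Eng and Ehd3 lead in Diff. hepatocytes at 19.2 to 25.4% each, whereas no gene exceeds 8.80% on average in mature hepatocytes.

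Hepatoblasts replicate 1 was the highest hepatoblast library for 30 of the 35 genes, and 27 genes had replicate 1 first, replicate 2 second and replicates 3 and 4 below. The ratio of replicate 1 to the mean of replicates 2 to 4 had a median of 2.52 and was 2 or more for 23 genes, with the largest value for Erg (3.77), Cd34 (3.68) and Emcn (3.46). It was between 1.00 and 1.28 for 5 genes, namely Gpr182 (1.003), Stab1 (1.04), Egfl7 (1.11), Plvap (1.23) and Ramp2 (1.28), and below 1 for Wnt9b (0.887), Rspo3 (0.647) and Wnt2 (0.404). On the log2 scale the median was 1.33, beside 2.80 for 10 erythroid markers, 1.85 for 14 macrophage markers, 1.27 for 10 megakaryocyte and platelet markers and -0.56 for both 12 mesenchymal markers and 6 hepatocyte and hepatoblast markers. The summed erythroid markers were 1661 CPM in replicate 1 and 180 to 323 CPM in the other hepatoblast libraries, 4.88 to 8.34 CPM in Diff. hepatocytes and 135 to 183 CPM in mature hepatocytes, where Alas2 alone had 151 CPM on average. In mature hepatocytes replicate 1 or 3 was highest for 32 genes and replicate 2 lowest for 26, and the macrophage markers were likewise higher in replicates 1 and 3 (275 and 302 CPM) than in replicates 2 and 4 (160 and 153 CPM). In Diff. hepatocytes replicate 1 or 2 was highest for 27 genes. The part of other cell types in these differences was not tested.

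**Figure D5:**
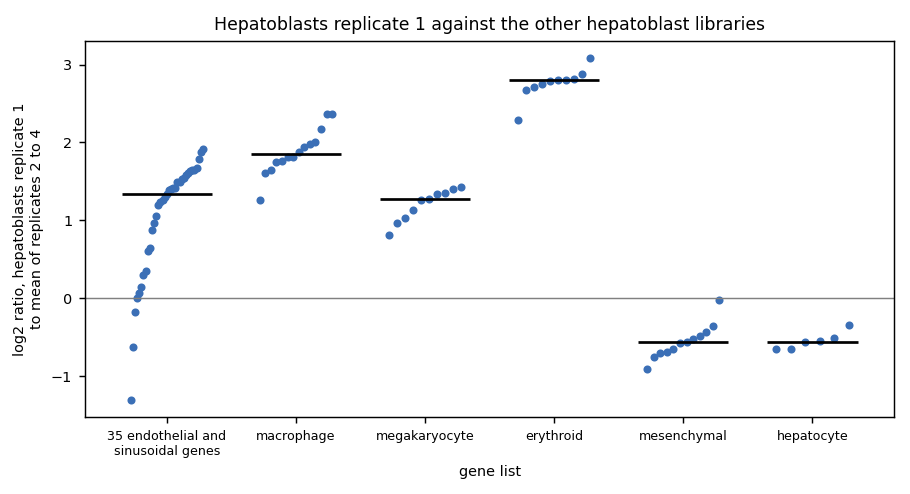
Log2 ratio of hepatoblasts replicate 1 to the mean of hepatoblasts replicates 2 to 4 for each gene (points) of 6 lists, with the median of each list as a bar. The 35 genes have a median of 1.33 and spread from below -1 to nearly 2, whereas the erythroid markers lie together near 2.80 and the mesenchymal and hepatocyte markers lie below 0.

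Of 23 ligands, receptors, co-receptors and partners listed for the pathways of these receptors 21 were tested. In culture 4 were higher and 2 lower than in hepatoblasts (median log2FC -0.07), shares near those of all tested genes (14.9% higher and 14% lower). The higher genes were all ligands. Vegfd, a ligand of Flt4, went from 1.74 ± 0.438 CPM (SD, n = 4) to 26.3 ± 7.299 CPM (log2FC 3.92 ± 0.23, adjusted p = 1.79e-08), Slit3, a ligand of the Robo family, from 1.24 ± 0.3804 to 9.23 ± 3.04 CPM (log2FC 2.896 ± 0.32, adjusted p = 5.06e-06), and Adm, adrenomedullin, from 1.26 ± 0.163 to 6.700 ± 1.13 CPM (log2FC 2.403 ± 0.21, adjusted p = 6.25e-07). Adm2, the related intermedin, changed by 1.55 ± 0.29 (adjusted p = 0.000499). The 2 lower genes were the Notch ligand of vessel sprouts Dll4 (log2FC -2.82 ± 0.59, adjusted p = 0.00112) and the adrenomedullin receptor Calcrl (log2FC -2.03 ± 0.30, adjusted p = 6.59e-05). Vegfa, the main ligand of Kdr, was at 105 ± 20.7 CPM in hepatoblasts and 120.2 ± 5.19 CPM in culture (log2FC 0.196 ± 0.13, adjusted p = 0.215).

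In mature hepatocytes 3 of the 21 pathway genes were higher than in hepatoblasts and 11 lower, where 20.1% of all tested genes were higher and 24.7% lower. When hepatoblasts replicate 1 was left out there were 5 higher, with Acvrl1 (1.0025) and Dll4 (1.75) added, and 11 lower. The 3 were Vegfa (247 ± 27.4 CPM, log2FC 1.24 ± 0.13, adjusted p = 1.79e-06) and the VEGF co-receptors Nrp1 (log2FC 2.002 ± 0.17, adjusted p = 2.02e-07) and Nrp2 (log2FC 2.56 ± 0.39, adjusted p = 5.19e-05). Those lower included Gdf2 (log2FC -1.92 ± 0.20, adjusted p = 1.13e-06) and Bmp10 (log2FC -1.81 ± 0.34, adjusted p = 0.000306), which encode the endoglin ligands BMP9 and BMP10, as well as Vegfc, Vegfd, Pgf, Angpt1, Apela, Adm, Adm2, Slit2 and Slit3. Against mature hepatocytes the cultured cells had 10 of the 21 higher and 6 lower, against 20.2% and 15.6% of all tested genes. Angpt4 and Apln did not pass the filter.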

How the data were processed

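Poly(A) RNA of 12 libraries was read as 75-bp single reads by the authors, who mapped them to GRCm38 with STAR 2.5.2b and took its counts for the genes of Ensembl 92. Deposited were those raw counts, not normalized. The libraries are strand-specific, but which strand setting gave the counts, and whether duplicates were removed, is not given in the sources used here, so overlapping and antisense genes are uncertain. Libraries were grouped by their labels. Symbols, positions and exon lengths came from GENCODE M21, which held 53620 of the 53715 identifiers, and promoters from RefSeq.

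The 35 genes and all other lists were chosen with earlier results of these data known. Every one of the 35 genes and every pathway gene could be named, and from each other list the first 3 markers, the 3 genes with the highest mean CPM and, in each comparison, the called genes that rose and fell most.

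In R 4.3.3, genes above 10 counts in at least 1 library were tested with edgeR 4.0.16 (TMM, glmQLFit and glmQLFTest, group as the only term, 12 libraries), with Benjamini-Hochberg adjustment, and called where the adjusted p was below 0.01 and the log2 fold change beyond 1 in either direction. The fit was tested on simulated data. The replicates are biological, and p-values measure the spread between them. A gene with 0 counts in a group was set at 3 counts in each library. Intervals and floors cover counting error only. Mature hepatocytes, Diff. hepatocytes and hepatoblasts had 4 libraries each of 19581551 to 25216977 counts. Alternatives were DESeq2 1.42.0 (the authors used DESeq2 1.22.2) with the fold change threshold after or inside the test, its size factors in edgeR, library totals, no filter beyond 1 count, filterByExpr, fits limited to the 8 libraries compared, a block for the replicate number, calls at 0.05 with no threshold on the fold change, and leaving out each library in turn. Sequences of 75 bases shared with another gene's transcripts were counted for each of the 35 genes.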

Additional observations from a re-analysis of the deposited data

Results flagged for a closer look

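In 108 groups of 4 libraries, Dixon's test at the 95% level set 5 values apart, where chance alone sets about 5.4 apart. Cdh5 had 29.6 CPM in hepatoblasts replicate 1, against 8.55 to 11.02 CPM in the other hepatoblast libraries. Diff. hepatocytes replicate 1 had 2.51 CPM of Cd34, against 1.59 to 1.69 CPM in the other libraries of its group, and 6.53 CPM of Ptprb, against 1.25 to 1.91 CPM. Aplnr had 0.0642 CPM, a single count, in mature hepatocytes replicate 2 and no count in the other adult libraries. Erg had 3.84 CPM in mature hepatocytes replicate 1, just below the 4.30 to 4.35 CPM of the others.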

How the results depend on the processing

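Most values of the 35 genes kept their direction and their side of the thresholds under the alternatives, and TMM and DESeq2's size factors gave the same direction for all 35 in each comparison. With library totals in place of TMM, the comparison of mature hepatocytes with hepatoblasts had 6 genes lower, 8 higher and a median of 0.47 on the log2 scale, and the signs of Cdh5 (-0.30), Plvap (-0.20), Ramp2 (-0.44), Gpr182 (-0.80) and Clec1b (-0.51) turned. Of all 17779 tested genes, 9927 were called in either direction in that comparison. Between Diff. and mature hepatocytes the same scaling gave 3 higher genes, a median of -2.95 and Flt1 at 0.025, with 7276 of all 17779 tested genes called in either direction. The summed CPM of the set averaged 351.78 in hepatoblasts and 453.47 in mature hepatocytes. With the threshold of 1 inside DESeq2's test, 13 genes were lower in culture than in hepatoblasts, 8 higher in mature hepatocytes than in hepatoblasts, and 0 higher in Diff. than in mature hepatocytes, where DESeq2's Wald test with the threshold after it gave 1, Cd34. With the threshold inside, 2504, 4923 and 3528 of all 17779 tested genes were called in either direction in these comparisons. With calls at an adjusted p below 0.05 and any fold change, 2 genes (Ehd3 and Eng) were higher in culture, 6 were lower in mature hepatocytes than in hepatoblasts, and 2 (Cd34 and Rspo3) were higher in Diff. than in mature hepatocytes, as they were with no filter beyond 1 count (2 genes). At the looser rule 10615, 12870 and 11580 of all 17779 tested genes were called in either direction in these comparisons. With no filter beyond 1 count, 6674 of 32377 genes were called between Diff. and mature hepatocytes. Leaving out 1 library at a time, the median in culture lay between -2.86 and -1.91, the number higher in culture between 0 and 2, the median in mature hepatocytes against hepatoblasts between 1.14 and 1.77, and the number higher in Diff. than in mature hepatocytes between 0 and 1. All tested genes had 4704 to 5170 calls in either direction in culture and 6027 to 6532 between Diff. and mature hepatocytes. In those fits the difference in culture crossed 0 for Ptprb (-1.27 to 0.087), Stab1 (-0.20 to 0.13), Clec1b (-0.63 to 0.24) and Bmp2 (-0.59 to 0.088), as did that of Gpr182 in mature hepatocytes (-0.059 to 0.16).

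Same-numbered libraries correlated over 0.1 in 3 of 4 pairs of hepatoblasts and Diff. hepatocytes (-0.06 to 0.32, against -0.35 to 0.24 between other numbers) and in 0 of 4 pairs of each of these groups with mature hepatocytes. Not every pair passed 0.1, so the numbers were not taken to pair the samples. In both other groups at once, 2 of 12 libraries correlated best with their own number. This count includes the adult cells, which came from other mice, so it cannot decide whether hepatoblasts and Diff. hepatocytes were paired. In fits limited to the 8 libraries compared, 19 genes were lower in culture (Flt4, Mmrn2, Sox18 and Wnt9b lost) and 16 higher in mature hepatocytes than in hepatoblasts (Flt1, Stab2 and Tek lost). Of all genes tested there, 5074 of 17256 and 7649 of 17093 were called in either direction. With filterByExpr Wnt9b was lost in every comparison, leaving 22 genes lower in culture, and Flt1 and Tek among those higher in mature hepatocytes than in hepatoblasts. That filter kept 15682 genes, of which 4698 were called in either direction in culture and 7277 in mature hepatocytes against hepatoblasts. With the replicate block, 23 genes were lower in culture (Sox17 gained, Wnt9b lost), 23 were higher in mature hepatocytes than in hepatoblasts (Pecam1, Emcn, Tie1 and Erg gained), and 27 were lower in Diff. than in mature hepatocytes. The block gave 5220, 7988 and 6359 calls in either direction among all 17779 tested genes in these comparisons. Depth limited Aplnr, Clec4g, Dnase1l3, Emcn, Robo4, Sox17, Sox18, Nos3, Wnt2 and Wnt9b, which had under 10 counts in every Diff. hepatocyte library.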

Other observations

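Of 25 other endothelial genes, 24 were matched and tested. In Diff. hepatocytes 9 of them were lower and 3 higher than in hepatoblasts (median log2 fold change -1.03), and in mature hepatocytes 9 were higher and 2 lower. Over all tested genes 14% were lower and 14.9% higher in culture, and 20.1% were higher and 24.7% lower in mature hepatocytes. Without hepatoblasts replicate 1 the list had 9 lower and 4 higher in culture (median -0.63) and 12 higher and 2 lower in mature hepatocytes. The tight junction gene Cldn5 was at 1.82 ± 1.39 CPM in hepatoblasts (SD, n = 4), 0.134 ± 0.106 in Diff. hepatocytes and 5.28 ± 1.55 in mature hepatocytes, and the adhesion molecule Icam2 at 1.72 ± 1.55, 0.1596 ± 0.0677 and 1.65 ± 0.7699 CPM. Thbd, or thrombomodulin, had the largest rise in culture (log2FC 1.75 ± 0.47, adjusted p = 0.00624, edgeR, and 2.59 without hepatoblasts replicate 1) and Tal1, a factor shared with blood cells, the largest fall (log2FC -4.68 ± 0.73, adjusted p = 0.000101, and -3.36 without hepatoblasts replicate 1, which had 77.1 CPM against 8.02 to 13.8 CPM in the others). Fcgr2b, the Fc receptor of sinusoidal endothelium, had 0.706 ± 0.885 CPM in hepatoblasts, 0.338 ± 0.266 in culture and 32.4 ± 7.004 in mature hepatocytes (log2FC 5.51 ± 0.59, adjusted p = 1.87e-06 against hepatoblasts). Hepatoblasts replicate 1 had 2.03 CPM of Fcgr2b against 0.199 to 0.324 CPM in the others, and without it the adult rise was 6.90 on the log2 scale. Vwf, the von Willebrand factor of vessels and platelets, was higher in Diff. than in mature hepatocytes (log2FC 2.83 ± 0.43, adjusted p = 6.66e-05). The mannose receptor Mrc1 and the ETS factor Ets1 were called in no comparison, with Ets1 at 23.95 ± 2.51, 24.3 ± 2.41 and 17.7 ± 3.87 CPM in the 3 groups.

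Of 14 macrophage markers, 4 were lower and 1 higher in culture than in hepatoblasts, among them the Kupffer cell lectin Clec4f at -2.69 (-2.08 without hepatoblasts replicate 1 and -3.29 without Diff. hepatocytes replicate 1) and the complement receptor Vsig4 at 4.62 (5.35 and 3.67 without the same libraries) on the log2 scale, and in mature hepatocytes 2 were higher and 1 lower. Vsig4 had only 4, 0, 2 and 1 counts in hepatoblasts replicates 1 to 4, so the size of its rise is uncertain. Among all tested genes, 14% were lower and 14.9% higher in culture, and 20.1% were higher and 24.7% lower in mature hepatocytes. Of 12 mesenchymal markers, 3 were higher and 3 lower in culture (2 and 3 without hepatoblasts replicate 1). The largest rise among them was that of Acta2, smooth muscle actin, which went from 10.5 ± 2.75 to 236 ± 116 CPM, and the largest fall that of the nerve growth factor receptor Ngfr (log2FC -6.57, and -7.60 without Diff. hepatocytes replicate 2), while 9 were lower and 2 higher in mature hepatocytes than in hepatoblasts. All 10 erythroid markers were lower in culture, and in mature hepatocytes 9 were lower and Alas2 was higher (2.13, and 3.11 without hepatoblasts replicate 1). None of the 10 megakaryocyte and platelet markers was called in culture by edgeR or DESeq2, 1, Pf4, having an unadjusted p under 0.05 by edgeR and a call without hepatoblasts replicate 1 (1.62, adjusted p = 0.00474), and all 10 were lower in mature hepatocytes than in hepatoblasts, with Ppbp as the largest difference. Of the 6 hepatocyte and hepatoblast markers, 2 were higher and 2 lower in culture (1 and 2 without hepatoblasts replicate 1), and 4 were higher and 2 lower in mature hepatocytes than in hepatoblasts.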
